A study of Rattus norvegicus with 6 samples.

Results

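The genes described here are 3 Sprouty genes (Spry1, Spry2 and Spry4) and the 3 genes of the PEA3 group of ETS transcription factors (Etv1, Etv4 and Etv5), followed in rat pluripotent cells whose medium contained a MEK inhibitor. They were chosen by name: every probe set that the platform annotation gives exactly 1 of these symbols was taken, which found 12 of 31042 probe sets, for 6 of 14217 genes. Flat pluripotent stem (fPS) cells, on 3 arrays, were set against embryonic stem (ES) cells, on 3 arrays, all from Sprague-Dawley rats. Each sample's RNA was converted to biotinylated cRNA and read on an Affymetrix array whose probes lie near the 3′ ends of transcripts.

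Culture was the same for both groups, per the labels. The medium was a mixture of DMEM/F12 and Neurobasal with N2, B27 and Glutamax, and it contained 10 ng/ml human LIF, 3 μM of the GSK3 inhibitor CHIR99021 and 0.5 μM of the MEK inhibitor PD0325901. The labels also give maintenance on mouse embryonic fibroblasts treated with mitomycin C, in DMEM with 15% serum, without saying which culture the RNA came from. No array without the inhibitor was analysed here, so the response to MEK inhibition itself cannot be measured, and what is compared is fPS with ES cells under the labelled inhibitor. The labels do not give how the fPS cells were derived, and their description field also reads embryonic stem cells. Separate cultures for the 3 samples of a group are not stated. The p-values therefore rest on sample-to-sample spread that may be technical.

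Sprouty proteins are feedback inhibitors: growth factor signalling through RAS, RAF, MEK and ERK induces them, and they then damp the signal near the receptor or at RAS and RAF. The PEA3 factors are ETS-domain activators whose genes are switched on by FGF and ERK signalling in many embryonic tissues, and which the HMG-box repressor Capicua holds down until ERK relieves it. In ES cells, ERK activity favours exit from the naive pluripotent state, and blocking MEK is used to hold cells in it, so that both families are commonly read as outputs of the blocked pathway.

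Counting each gene by its brightest probe set, Spry1 was the only member past the threshold, 2.49-fold higher in fPS cells, whereas the values of Spry2 and Spry4 overlapped between the groups. All 9 probe sets of Etv1, Etv4 and Etv5 had a log2 change below 0, though 1 of them (1392555_at of Etv1) lay so near 0 that its sign turned under other settings. In 5 of the 9 every fPS array lay below every ES array. Of these 9, 1 passed the threshold, a dim probe set of Etv1. Over all 31042 probe sets, 48.3% had a change below 0, and 9.88% had all fPS arrays below all ES arrays. An unadjusted p under 0.05 was found for 5 of the 9, beside 7.89% of all probe sets with such a p and a lower value in fPS cells. In bulk samples such as these, fewer cells of a type and less RNA per cell cannot be told apart.

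The stretch before an annotated transcription start is shown for some members because Spry1 and the PEA3 genes lay on different sides of 0. ETS factors and Capicua are also both known to act through short DNA motifs. The table of RefSeq promoters (rat assembly GRCr8) held 5 of the 6 members and had no entry for Etv4. Printed here are the 250 bases before an annotated start of Spry1, Spry4, Etv1 and Etv5, 5′ to 3′ on the gene's strand. Capitals mark the ETS core GGAA on either strand and the Capicua octamers TGAATGAA, TGAATGGA, TCAATGAA and TCAATGGA on either strand.
Spry1, chr2:122485097-122485346, plus strand: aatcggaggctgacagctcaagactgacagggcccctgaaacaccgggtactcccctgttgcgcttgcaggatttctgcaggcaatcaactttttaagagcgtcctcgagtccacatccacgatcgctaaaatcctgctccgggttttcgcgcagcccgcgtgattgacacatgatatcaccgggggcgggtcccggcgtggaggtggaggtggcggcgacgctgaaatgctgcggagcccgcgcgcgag
Spry4, chr18:30702547-30702796, minus strand: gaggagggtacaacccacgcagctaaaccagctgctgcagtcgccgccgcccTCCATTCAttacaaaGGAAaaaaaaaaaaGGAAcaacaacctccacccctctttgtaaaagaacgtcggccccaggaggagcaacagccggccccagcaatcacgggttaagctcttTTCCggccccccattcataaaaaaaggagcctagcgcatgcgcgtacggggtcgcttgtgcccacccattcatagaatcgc
Etv1, chr6:61317179-61317428, plus strand: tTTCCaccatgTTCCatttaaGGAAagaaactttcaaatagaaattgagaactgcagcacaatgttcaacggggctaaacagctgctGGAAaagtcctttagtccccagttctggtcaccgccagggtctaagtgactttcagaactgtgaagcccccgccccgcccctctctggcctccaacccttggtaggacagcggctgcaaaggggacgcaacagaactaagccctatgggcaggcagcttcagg
Etv5, chr11:92113013-92113262, plus strand: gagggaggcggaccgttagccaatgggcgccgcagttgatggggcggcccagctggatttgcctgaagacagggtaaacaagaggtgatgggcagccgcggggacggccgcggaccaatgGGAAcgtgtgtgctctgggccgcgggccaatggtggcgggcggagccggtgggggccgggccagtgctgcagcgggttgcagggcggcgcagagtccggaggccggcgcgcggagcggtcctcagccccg

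The Spry1 window held 0 ETS cores, where 93.2% of 33469 promoter windows of the same length held at least 1. The Etv1 window held 4, that of Spry4 held 3 and that of Etv5 held 1. Spry2 had 2 annotated starts, whose windows are not printed and held 4 and 2 cores and no octamer. The printed windows of Spry1, Etv1 and Etv5 held no octamer either. One Capicua octamer, TGAATGGA read on the opposite strand, lay 198 bases before the Spry4 start and overlapped none of the ETS cores there; 1.11% of all windows held this octamer. The other 3 octamers, which 1.18%, 0.801% and 0.553% of all windows held, were in none of the printed windows. The longer ETS consensus CCGGAAGT, in 3.1% of all windows, was also in none of them. By RefSeq's span of each gene, all 250 bases for Spry1 and Etv1 and 92 bases for Etv5 lay inside the gene, after the start of a longer transcript, whereas the Spry4 window lay wholly before the gene. These matches describe letters only, and no binding was measured.

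Values below are deposited intensities on a linear scale, and differences were taken on log2(intensity + 16), which shrinks differences between low intensities. Adjusted p-values are limma's, after Benjamini-Hochberg over every probe set, and a call means an adjusted p under 0.05. Array medians ran from 36.2 to 45.3 on the fPS arrays and from 37.6 to 38.7 on the ES arrays. Of 22 pluripotency markers, 13 had a probe set of their own and none passed the threshold in limma, while 3 had an unadjusted p under 0.05, which 17.5% of all genes had. Groups did not overlap for 4 of the 13, beside 22.6% of all genes. The fPS values were higher for 2 and lower for 2, beside 11.3% of all genes in each direction. The 3 with the largest changes were Lin28a, an RNA-binding repressor of let-7 miRNAs, with -1.30, Sox2, a pluripotency transcription factor, with -0.97, and the nuclear receptor gene Nr0b1, with 0.76 (limma adjusted p = 0.0933, 0.181 and 0.213). Pou5f1, Nanog and Zfp42 were among the markers without a probe set named for them and were not analysed here. Counted by the brightest probe set, 122 of 14217 genes passed (0.858%), and 0.57% were called higher in fPS cells.

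**Figure D1:**
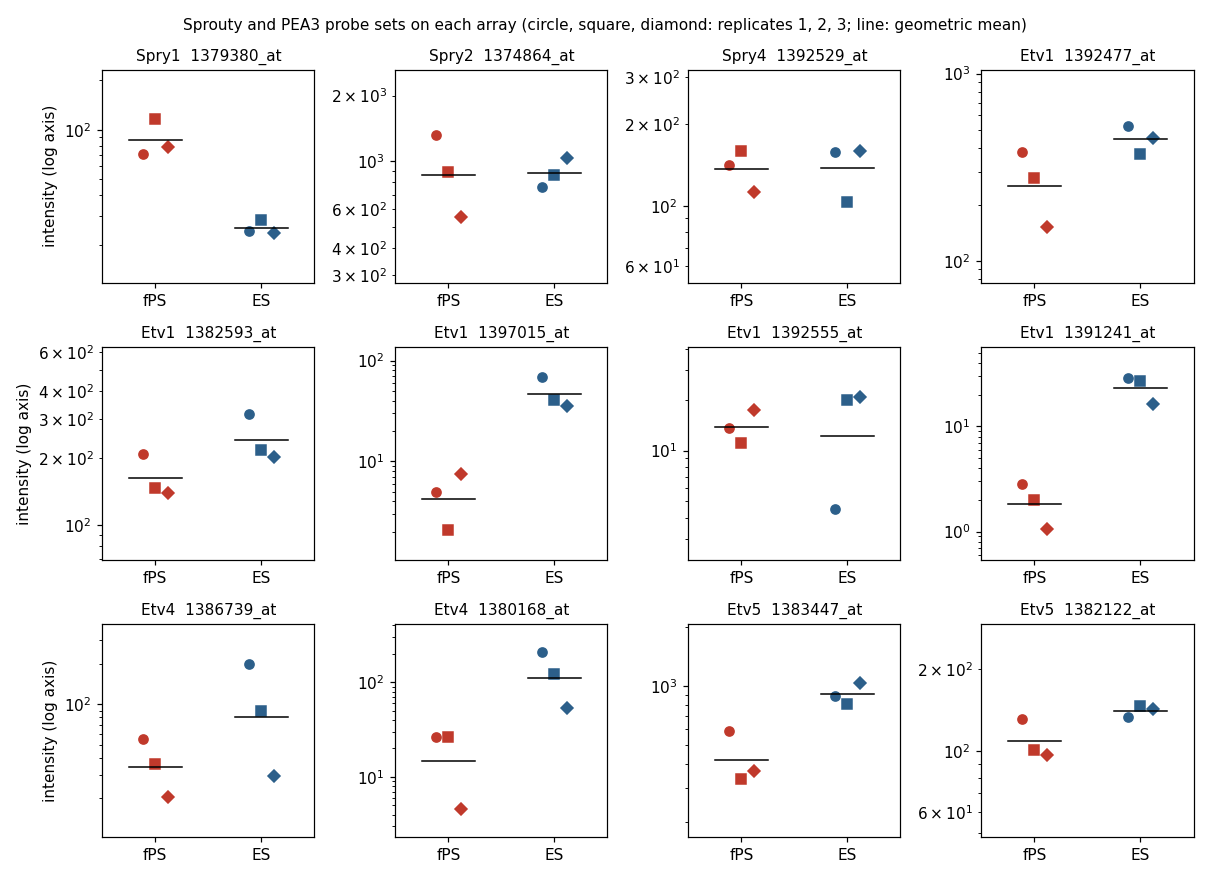
Deposited intensity (log axis) of the 12 probe sets of the Sprouty and PEA3 genes on the 3 fPS arrays (left) and the 3 ES arrays (right), with circles, squares and diamonds for replicates 1, 2 and 3 and a line at the geometric mean. Spry1 lies higher on all fPS arrays, Spry2 and Spry4 overlap, and 5 of the 9 PEA3 probe sets lie lower on all fPS arrays.

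Spry1 encodes a membrane-linked inhibitor of RAS-ERK signalling. Its probe set (1379380_at, of a gene on chromosome 2) read 71.6, 116 and 78.5 in fPS cells, against 24.4, 28.4 and 23.4 in ES cells. All 3 fPS arrays were higher than all 3 ES arrays, and the lowest fPS value lay well clear of the highest ES value. Of all probe sets, 10.1% had every fPS array above every ES array. Its place among all probe sets of the same array, which does not depend on the scaling of arrays, ran from the 60.0th to the 70.3rd percentile on fPS arrays and from the 39.6th to the 42.6th on ES arrays. Mean intensity was 88.8 ± 24.02 in fPS and 25.4 ± 2.62 in ES cells (SD, n = 3 each). The log2 change was 1.32 (SE 0.226, 95% interval 0.80 to 1.83, limma adjusted p = 0.0455). Leaving out any 1 of the 6 arrays kept the change between 1.14 and 1.44 but lost the call, with an adjusted p of at least 0.0595 (fPS replicate 1 left out) and at most 0.215 (fPS replicate 2 left out). With pseudocounts of 1 and 64 the change was 1.74 and 0.76, and neither passed (adjusted p = 0.142 and 0.0661).

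Spry2 is a Sprouty gene that is widely expressed in embryos, and its protein acts on the same pathway. It had intensities of 1318, 889 and 551 in fPS cells, against 763, 864 and 1038 in ES cells. The fPS arrays spanned the whole ES range, with replicate 1 above it and replicate 3 below it. The log2 change was -0.026 (SE 0.317, adjusted p = 0.985), and its 95% interval of -0.75 to 0.70 allows any fold of fPS over ES cells from 0.596 to 1.62. The sign depended on 1 array, since without fPS replicate 3 the change was 0.29 and without ES replicate 3 it was 0.090, neither of which passed.

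Spry4, another Sprouty gene and a common readout of FGF signalling in mouse embryos, read 141, 159 and 113 in fPS cells, against 158, 104 and 159 in ES cells. Both groups held values near the top and near the bottom of the same range. The log2 change was -0.012 (SE 0.240, adjusted p = 0.992), with a 95% interval of -0.56 to 0.53, or 0.680-fold to 1.45-fold. That interval leaves out a change as large as the one measured for Spry1, and so does the interval of Spry2. Within each array, the log2 value of Spry1 minus that of Spry4 was -0.84, -0.41 and -0.45 in fPS cells, against -2.10, -1.43 and -2.15 in ES cells. Spry1 minus Spry2 was -3.93, -2.77 and -2.58 in fPS cells, against -4.27, -4.31 and -4.74 in ES cells. The groups overlapped in neither difference, and the fPS values were the higher ones in both.

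Etv1 (chromosome 6) encodes a PEA3 factor also known as ER81 and was covered by 5 probe sets that disagreed in size. The brightest, 1392477_at, read 381, 276 and 152 in fPS cells, against 526, 372 and 455 in ES cells, with fPS replicate 1 just above the lowest ES array. Its log2 change was -0.78 (SE 0.322, adjusted p = 0.292), and it was -0.44 without fPS replicate 3 and -1.06 without fPS replicate 1. The second, 1382593_at, read 208, 147 and 139 in fPS cells, against 317, 218 and 202 in ES cells, also with an overlap of 1 array. Its change was -0.53 (SE 0.253, adjusted p = 0.369).

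A dim pair of Etv1 probe sets showed the clearest separation. Probe set 1397015_at read 4.98, 2.09 and 7.47 in fPS cells, against 68.6, 40.7 and 35.0 in ES cells. No fPS value came near an ES value, and the log2 change was -1.59 (SE 0.251, adjusted p = 0.0389), the only PEA3 value past the threshold, where 0.693% of all probe sets were called. It lost that call without any 1 of the 6 arrays (adjusted p of at least 0.0673 with fPS replicate 1 left out and at most 0.200 with fPS replicate 2 left out) and with pseudocounts of 1 and 64, which gave -3.13 and -0.69. Probe set 1391241_at read 2.84, 1.99 and 1.07 in fPS cells, against 28.7, 27.4 and 16.5 in ES cells, with a change of -1.15 (SE 0.213, adjusted p = 0.0534) that passed under 3 alternatives (adjusted p = 0.0351 with centred arrays). On the fPS arrays the values of 1391241_at lay between the 1.64th and 5.48th percentile of all probe sets, and those of 1397015_at between the 5.79th and 18.9th. Both lay at the dim end of the array, where the size of a fold change rests on the pseudocount. The last, 1392555_at, read 13.7, 11.1 and 17.5 in fPS cells, against 4.47, 20.0 and 20.7 in ES cells, and overlapped fully (log2 change -0.0011, SE 0.271). That probe set was also dim, and no detection calls were at hand to say which probe sets measured transcript.

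Etv4 (chromosome 10), the factor for which the PEA3 group is named, had 2 probe sets of nearly equal brightness. The brighter, 1386739_at, read 55.5, 35.8 and 20.4 in fPS cells, against 199, 89.0 and 29.2 in ES cells. Replicate 3 of ES cells lay inside the fPS range, and the log2 change of -0.97 (SE 0.516, adjusted p = 0.424) did not pass. The other, 1380168_at, read 26.4, 26.4 and 4.59 in fPS cells, against 207, 122 and 53.1 in ES cells, without overlap. Its change of -1.95 (SE 0.448, 95% interval -2.97 to -0.93, adjusted p = 0.0890) missed the threshold, and it passed with the trend and robust settings of eBayes and with the dimmest 50% of probe sets left out (adjusted p = 0.0315 and 0.0183, and up to 0.250 over all alternatives). The value given for Etv4 thus depended on the choice between probe sets, and it also depended on single arrays: 1386739_at changed by -0.43 without ES replicate 1 and by -1.55 without ES replicate 3.

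Etv5 (chromosome 11), the third PEA3 factor, is also known as ERM. Its brighter probe set, 1383447_at, read 588, 335 and 366 in fPS cells, against 891, 804 and 1036 in ES cells. Every fPS array was below every ES array, with means of 430 ± 138 in fPS and 910 ± 117 in ES cells (SD, n = 3 each). The log2 change was -1.09 (SE 0.259, 95% interval -1.68 to -0.50, adjusted p = 0.0933), which is 2.13-fold lower in fPS cells and did not pass. It passed in 1 of 16 alternatives, with the dimmest 50% of probe sets left out (adjusted p = 0.0345, and up to 0.347 over the alternatives). The other probe set, 1382122_at, read 131, 101 and 96.6 in fPS cells, against 133, 146 and 142 in ES cells, again without overlap, but with fPS replicate 1 barely below ES replicate 1. Its change was -0.33 (SE 0.205, adjusted p = 0.510).

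**Figure D2:**
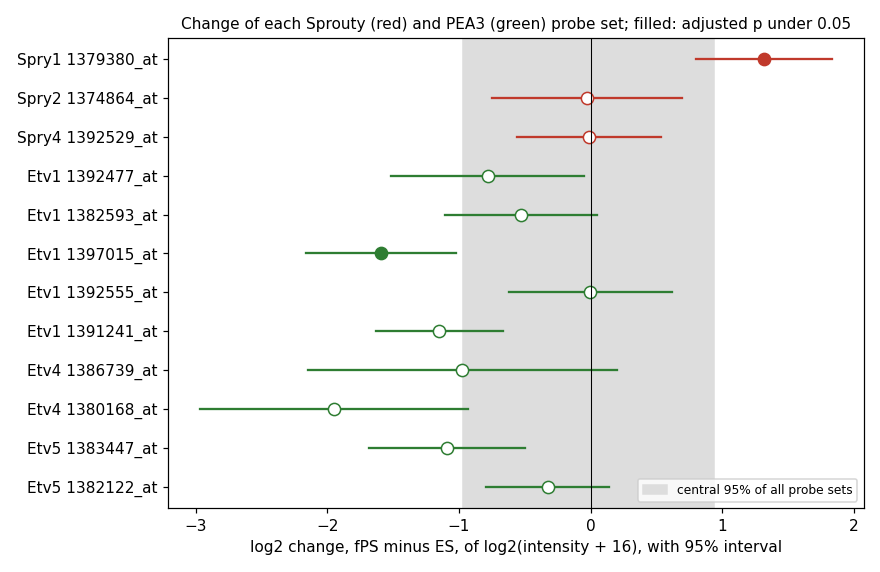
Log2 change (fPS minus ES, on log2(intensity + 16)) of each of the 12 probe sets with its 95% interval, Sprouty in red and PEA3 in green, filled where the adjusted p was under 0.05, over a grey band that holds the central 95% of all probe sets (-0.97 to 0.94). Spry1 at 1.32 and the Etv1 probe set 1397015_at at -1.59 are the filled points, and the intervals of Spry2 and Spry4 span 0.

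In all, 2 of the 12 member probe sets passed the threshold, 1 in each direction, beside 0.399% of all probe sets called higher and 0.293% called lower. An unadjusted p under 0.05 was found for 6 of the 12, beside 15.4% of all probe sets, and groups did not overlap in 6 of the 12, beside 20.0% of all probe sets. Probe sets of 1 gene share their transcript, so these are not independent counts. The members were also chosen with earlier results of these data known. The median change of the 6 genes, each by its brightest probe set, was -0.40, and that of all genes was near 0. Without any 1 array, 0 of the 12 passed in limma.

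**Figure D3:**
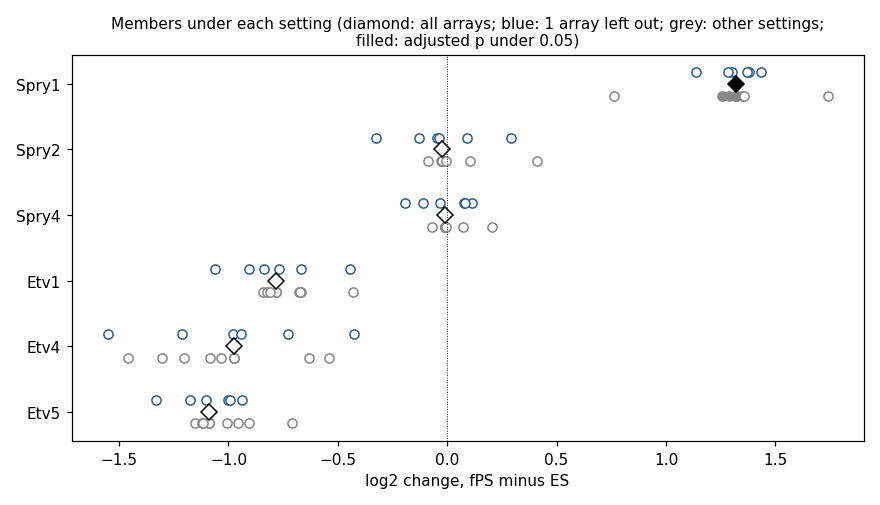
Log2 change (fPS minus ES) of each member gene by its brightest probe set with all arrays (black diamond), without 1 array (blue) and under other settings, including gene means over probe sets (grey), filled where the adjusted p was under 0.05. Spry1 stays above 0 and Etv1, Etv4 and Etv5 stay below 0 under every setting drawn, while Spry2 and Spry4 fall on both sides of 0.

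The feeder cells were fibroblasts, and in each group Etv4 was lowest on the array with the highest level of their markers. The mean log2 value of 24 fibroblast markers was 6.01, 5.96 and 6.50 on the fPS arrays and 5.49, 5.72 and 6.54 on the ES arrays. The collagens among them averaged 6.62, 6.35 and 7.40 on the fPS arrays and 5.64, 6.34 and 7.70 on the ES arrays. The sum of all marker intensities ran from 3254 to 3870 in fPS and from 2571 to 3817 in ES cells. In that sum Timp1 alone read 2080, 2358 and 1404 in fPS cells, against 2106, 1722 and 590 in ES cells. Timp1 was lowest on ES replicate 3, which had the highest marker mean. None of the 24 was called in limma, and 3 had an unadjusted p under 0.05, beside 17.5% of all genes. The lowest marker intensity on an array ran from 1.06 to 3.42, and no detection calls were at hand. The feeders were mouse cells, and how their RNA read on these probes was not tested. In each group the array with the highest marker level, replicate 3, had the lowest Etv4 value on both Etv4 probe sets, and ES replicate 1, with the lowest mean marker level, had the highest. The order did not hold between fPS replicates 1 and 2, where 1386739_at read 55.5 and 35.8 at marker means of 6.01 and 5.96. Etv4 also fell with replicate number, which these arrays do not separate from marker level. The mean log2 value of 13 pluripotency markers was 10.1, 9.91 and 9.57 on the fPS arrays and 9.97, 9.85 and 10.3 on the ES arrays. With the marker level as a covariate the change of Etv4 probe set 1386739_at was -0.54 and that of 1380168_at was -1.57 (adjusted p = 0.358 and 0.0584). Without both replicates 3, the arrays with the highest marker level, the changes of these probe sets were -1.31 and -2.05, against -0.97 and -1.95 over all arrays. For Spry1 and Etv5 the changes with the covariate were 1.36 and -1.12 (adjusted p = 0.0673 and 0.120), close to those without it. Without both replicates 3, Spry1 and Etv5 had changes of 1.35 and -0.90, and Etv1 had -0.43, against -0.78 over all arrays, with 0 probe sets called in that smaller fit. The part of feeder RNA in these values was not tested.

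**Figure D4:**
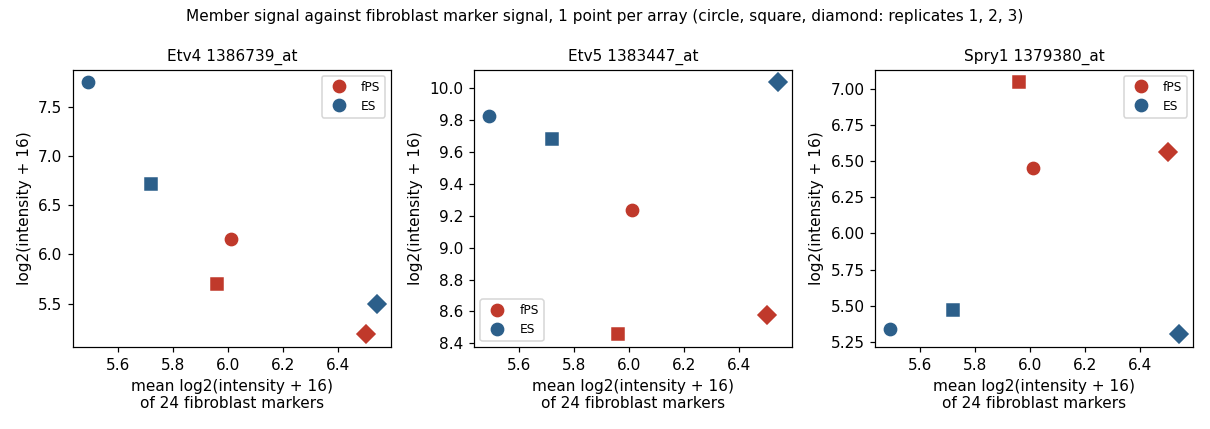
Log2(intensity + 16) of Etv4, Etv5 and Spry1 by their brightest probe sets (y axes) against the mean log2 level of the fibroblast markers (x axis), 1 point per array, fPS in red and ES in blue, with circles, squares and diamonds for replicates 1, 2 and 3. Etv4 is lowest on the arrays with the highest marker level in both groups, whereas Etv5 and Spry1 separate by group at low and high marker levels.

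The wider pathway was read from lists of genes, each gene by its brightest probe set, and counts at an unadjusted p under 0.05 are to be read beside the 17.5% of all genes that had one. Ligands, receptors and adaptors of FGF signalling showed no called change: of 18 listed, 16 were measured and 0 passed in limma, with 2 at an unadjusted p under 0.05. The receptor gene Fgfr3 read 541, 593 and 175 in fPS cells, against 73.6, 162 and 216 in ES cells. Its log2 change was 1.38 (adjusted p = 0.228, SE 0.494). Another Fgfr3 probe set had 0.52 (adjusted p = 0.518). On the brighter one the groups overlapped, and fPS replicate 3 lay among the ES arrays. Gab1, an adaptor that recruits SHP2 and PI3K to activated receptors, read 787, 665 and 655 in fPS cells, against 1410, 1248 and 2864 in ES cells, with -1.27 (SE 0.318, adjusted p = 0.103). All fPS values were lower, and Gab1 passed with the dimmest 50% of probe sets left out (adjusted p = 0.0330) and under trend and robust eBayes (0.0451). The RAS exchange factor Sos1 had a change of 0.51 (adjusted p = 0.472).

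Of 24 genes of the RAS, RAF and MEK cascade, 16 were measured, 0 passed in limma and 4 had an unadjusted p under 0.05. The others were not analysed here. Map2k2, which encodes MEK2, a target of PD0325901, read 271, 235 and 192 in fPS cells, against 510, 423 and 426 in ES cells. All fPS arrays lay lower, and the log2 change was -0.92 (SE 0.216, adjusted p = 0.0916), which passed when the dimmest 50% were left out (adjusted p = 0.0421). Map2k1, the gene of MEK1, named after its values were seen, averaged 598 ± 188 in fPS and 684 ± 281 in ES cells (SD, n = 3 each). Rps6ka2, a ribosomal S6 kinase downstream of ERK, and Mknk2, a kinase of the cap-binding factor eIF4E, had changes of -0.90 and 0.63 (adjusted p = 0.159 and 0.287). The 2 measured relatives of the Sprouty genes, Spry3 and Spred3, had changes of 0.53 and 0.24 (adjusted p = 0.476 and 0.750), and 0 of them had an unadjusted p under 0.05.

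Other feedback and target genes of ERK signalling contained 6 called rises. All 23 listed genes had a probe set. Of these, 6 passed as higher in fPS cells, beside 0.57% of all genes. None passed as lower, beside 0.288%, and the other 17 missed the threshold. The median log2 change was 0.35. Groups did not overlap in 13 of the 23, beside 22.6% of all genes, and 12 of these were higher, beside 11.3%. The list was chosen with earlier results of these data known, so the shares give scale only and are no test of the list. The immediate-early factors Fos, Egr1 and Egr2 rose by 4.74, 2.75 and 2.16 on the log2 scale (adjusted p = 0.0354, 0.0284 and 0.0411). The phosphatases Dusp9, Dusp1 and Dusp4, which remove phosphate from MAP kinases, rose by 3.02, 2.32 and 1.35 (adjusted p = 0.0238, 0.0321 and 0.0339). On the ES arrays Egr2 read 2.02, 4.77 and 18.4, and Dusp4 read 13.2, 10.8 and 11.9. At such low values the size of a fold change rests on the pseudocount. Over the alternatives Egr2 ran from 1.10 to 3.67 and Dusp4 from 0.65 to 2.12. Fos was uneven on the ES arrays, at 30.0, 20.8 and 270. The other probe sets of Fos and Egr2 were dim and did not pass, with changes of -0.27 and 0.52, and the other of Dusp1 had 1.51 and also missed the threshold (adjusted p = 0.0607). With 1 array left out the count was 3 for fPS replicate 1, 2 for ES replicate 2, 1 for either replicate 3, and 0 for fPS replicate 2 or ES replicate 1.

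Dusp6, a phosphatase specific for ERK and often read together with Spry4 and Etv4, was named after its values were seen. Its brightest probe set read 157, 106 and 112 in fPS cells, against 126, 120 and 120 in ES cells, with a change of 0.013 (SE 0.215, adjusted p = 0.990). Its other probe sets, 1377064_at and 1387024_at, had changes of -0.82 and -0.22 (adjusted p = 0.264 and 0.809). Values overlapped between the groups in all 3. Another immediate-early gene of the list, Ier2, also named after its values were seen, read 299, 220 and 273 in fPS cells, against 313, 353 and 482 in ES cells. Every fPS array lay lower, and its change was -0.50 (adjusted p = 0.367). Among these genes Spry1 was on the side of Dusp4, Fos, Egr1 and Egr2, the PEA3 genes had changes below 0, and Dusp6, Spry2 and Spry4 lay near 0 by their brightest probe sets, on either side of it depending on the scaling. These differences between genes were not tested.

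**Figure D5:**
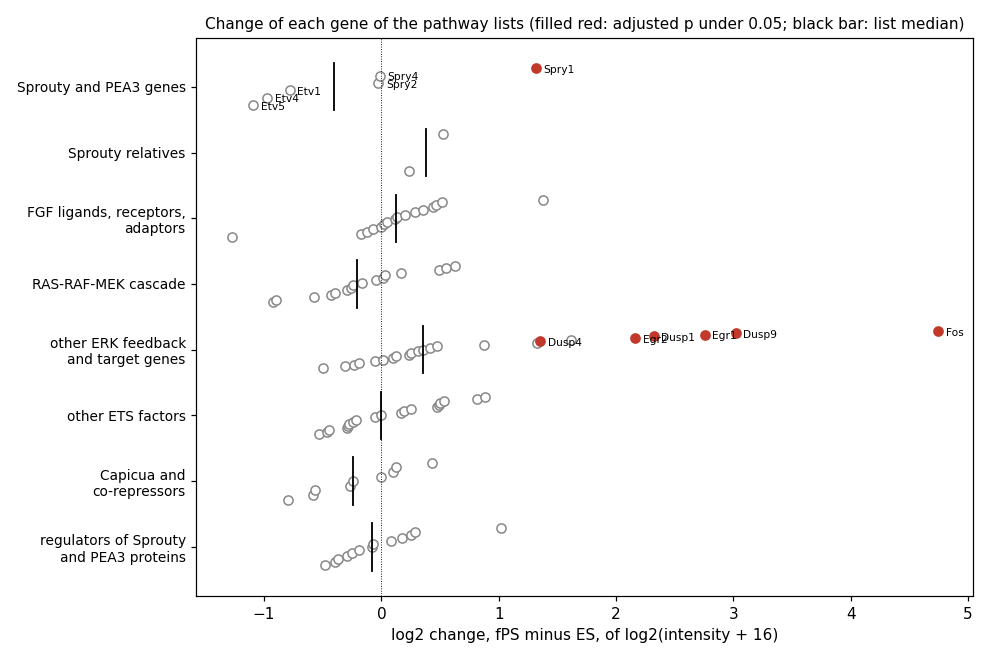
Log2 change (fPS minus ES) of every measured gene of the pathway lists by its brightest probe set, filled red where the adjusted p was under 0.05, with a black bar at the median of each list. The filled points are Spry1 and 6 other feedback and target genes of ERK signalling, and no other list holds a filled point.

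Among other ETS factors, 0 of 19 measured passed in limma, with 3 at an unadjusted p under 0.05 and a median change of -0.0073. Spdef and Elf3, ETS factors of epithelia, had changes of 0.88 and 0.82 (adjusted p = 0.214 and 0.157), and Gabpa, a broadly expressed ETS factor, had -0.53 (adjusted p = 0.352). Capicua itself (Cic), named after its values were seen, averaged 769 ± 58.9 in fPS and 705 ± 44.1 in ES cells (SD, n = 3 each), a log2 change of 0.12 (adjusted p = 0.837). Of 9 genes of Capicua and its co-repressors, 0 passed and 3 had an unadjusted p under 0.05. Atxn1l, a stabilising partner of Capicua, the deacetylase Hdac2 and the co-repressor Tle1 had changes of -0.80, -0.59 and -0.56 (adjusted p = 0.253, 0.258 and 0.320). The other probe sets of Atxn1l had changes of -0.18 and 0.18.

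A list drawn up for regulators of Sprouty and PEA3 proteins also gave 0 calls among 13 measured, with 1 at an unadjusted p under 0.05. That gene was Prkcd, protein kinase C delta, whose action on these proteins was not tested. It read 391, 463 and 361 in fPS cells, against 180, 208 and 185 in ES cells. All fPS arrays lay higher, and the log2 change of 1.02 (adjusted p = 0.0601, SE 0.203) passed under 3 alternatives (adjusted p = 0.0246 with the dimmest 50% left out). Det1, a part of the ubiquitin ligase that COP1 forms to degrade PEA3 proteins, and Ppp2ca, the catalytic subunit of phosphatase 2A, had changes of -0.48 and -0.39 (adjusted p = 0.418 and 0.515).

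The genes whose signal ran most nearly parallel to each member were found by Pearson's r over the 6 arrays, among 5049 probe sets with a mean log2 value of at least 8. They were Aqp3, Dpp7 and Map1lc3a for Spry1, with r from 0.9915 to 0.9963. They were Alg8, Lyrm2 and Mplkip for Spry2 (0.9795 to 0.9923), and Rimklb, Larp7 and Gcc2 for Spry4 (0.9562 to 0.9767). For Etv1 they were Mettl6, Mrpl49 and Psmc5 (0.9945 to 0.9989), for Etv4 Dph3, Erf and Brms1 (0.9678 to 0.9917), and for Etv5 Lef1, Mnd1 and C19h19orf53 (0.9954 to 0.9971). Erf belongs to the ETS family and Lef1 is a partner of β-catenin; the 6 arrays share the same 2 groups, so any gene with a like difference between them scores high on this measure.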

How the data were processed

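Intensities are as the authors deposited them, 1 per probe set and array, from biotinylated cRNA of 6 μg total RNA, per the labels' protocols. How probes were summarised, corrected and scaled is not given in the sources used here, and the table held 0 other columns per sample. Of 31099 probe sets, 57 controls were left out. The platform annotation gave 20826 probe sets 1 symbol, 436 several and 9780 none; member symbols matched RefSeq of GRCr8. Groups were compared with limma 3.58.1 (R 4.3.3, lmFit, eBayes) on log2(intensity + 16), without further normalization or filter. The fit was also run on data simulated from its own variance prior with normal noise. Its assumptions held there by construction, so that run checks the code and not these data. For genes, the brightest probe set (mean log2 value over all arrays) was taken. Members and lists were chosen with earlier results of these data known. All 12 member probe sets were described. From each list, called genes were named, filled up to 3 with those of the largest change. Figures used matplotlib 3.10.9 in Python 3.11.15. The number of arrays limits precision.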

Additional observations from a re-analysis of the deposited data

How the results depend on the processing

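The alternatives were 16 settings, each set against the fit given in the report, with eBayes's trend and robust options switched on together. The number of probe sets called was 215 (124 higher, 91 lower), 339 after quantile normalization, 376 with centred arrays (152 higher, 224 lower), 899 without the dimmest 50% of probe sets, 619 with the trend and robust settings, 107 with the replicate block, 41 with a pseudocount of 64, and 0 with a pseudocount of 1, with the fibroblast marker covariate or without both replicates 3. Without single arrays it ran from 0 to 162. The causes were not tested, except that the filter tests fewer probe sets and the smaller fits use fewer arrays.

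Member probe sets called were 2, but 4 with the trend and robust settings and 3 after quantile normalization, with centred arrays or without the dimmest 50%. They were 1 with the replicate block and 0 with pseudocounts of 1 and 64, the covariate, without both replicates 3 or without any 1 array. Member genes called were 1, but 2 without the dimmest probe sets and 0 with either pseudocount, the block, the covariate, without both replicates 3 or without any 1 array. Called feedback and target genes numbered 6, but 7 with the trend and robust settings, 4 with the replicate block and 4 of the 14 left without the dimmest 50%. They numbered 0 with a pseudocount of 1, the covariate or without both replicates 3, 1 with a pseudocount of 64, and 0 to 3 without single arrays. Without the dimmest 50%, 1 cascade gene and 1 gene of the FGF list passed, and the FGF gene (Gab1) also with the trend and robust settings. No called gene appeared among Sprouty relatives or other ETS factors under any of the 16.

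Spry1 changed by 1.74 and 0.76 with pseudocounts of 1 and 64, by 1.32 with the replicate block (adjusted p = 0.0686), by 1.35 without both replicates 3 (adjusted p = 0.183), by 1.36 with the covariate, and by 1.14 to 1.44 without single arrays, none of which passed. Etv5 passed at -1.09 without the dimmest 50%. The sign of Spry2 turned after quantile normalization (0.10) and without both replicates 3 (0.41), and without single arrays its change ran from -0.33 to 0.29. That of Spry4 turned likewise (0.073 and 0.20), with a range from -0.19 to 0.11. The sign of Etv1 probe set 1392555_at turned with a pseudocount of 1 (0.13) and without both replicates 3 (0.063), with a range from -0.28 to 0.14. Dusp6 turned with centred arrays (-0.047), as a mean over its probe sets (-0.34) and without fPS replicate 1 (-0.14). Etv1, Etv4 and Etv5 by their brightest probe sets kept a change below 0 in all 16. For the 24 named genes of the lists, 317 of 380 values kept direction and side of the threshold, 54 lost the call, 6 gained one and 3 turned.

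Same-numbered samples deviated from their group means with correlations of 0.151, 0.020 and 0.075, and differently numbered ones with -0.145 to 0.0545. For each fPS replicate the same-numbered ES array had the highest correlation. All were small, which does not show whether same-numbered samples were handled together. The labels' numbers were not taken as pairs, and the replicate block is given only as an alternative. With the block, Etv4 probe set 1380168_at passed (adjusted p = 0.0429) and Etv1 probe set 1397015_at did not (adjusted p = 0.0602). Etv4 probe set 1386739_at fell from replicate 1 to replicate 3 in both groups. Its unadjusted limma p was 0.0123 with the block and 0.0927 without it (adjusted p = 0.190 and 0.424).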
